A study of Homo sapiens with 12 samples.

Results

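The TRIM family was followed through 12 RNA-seq libraries of HEK293 cells that carried either a plasmid for the RNA-binding protein RBMX or the mock empty vector. Its members were taken by name, as every row whose symbol is TRIM followed by a number and at most 1 letter, which gave 72 of the 25268 genes listed. Of these, 43 reached a mean FPKM of 0.5 over the 12 libraries and were tested, and 29 stayed below it. FPKM divides the fragments of a gene by its transcript length and by the size of the library, so levels of different genes can be set side by side per length.

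HEK293 is an established human embryonic kidney line. Cells were transiently transfected with 2 µg of pCMV6-HIS-HA-RBMX, which drives a tagged RBMX from a viral promoter, or with the mock empty vector (control). Lysates freed of nuclei were run on sucrose gradients after cycloheximide, which holds ribosomes on the mRNA. Polysomal RNA came from the ribosome-loaded fractions and total RNA from a pool of 20% of every fraction, so a culture's total and polysomal libraries share a gradient. This gave 4 groups of 3 libraries (control total, RBMX total, control polysomal and RBMX polysomal), prepared as biological triplicates.

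TRIM proteins are named for a tripartite motif of a RING finger, B-box zinc fingers and a coiled coil. The RING finger binds a ubiquitin-loaded E2 enzyme and passes the ubiquitin on to a substrate, which makes most members E3 ligases, and the domain at the C terminus, most often a PRY-SPRY domain, chooses the substrate. Many members are induced by interferon or act in antiviral defence, among them TRIM5, which binds retroviral capsids, TRIM21, a cytosolic receptor for antibodies, and TRIM25, a ligase of the RIG-I pathway. Others work in chromatin, such as TRIM28, the co-repressor recruited by KRAB zinc finger proteins, or at microtubules, membranes and muscle filaments.

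Interferon-stimulated genes are commonly switched on through a promoter element that holds GAAA repeats with a short spacer. The letters GAAANNGAAA were therefore searched on both strands in the RefSeq windows of the GRCh38.p14 build, which run from 250 bases before to 50 bases after a gene's start, with overlapping matches kept. They were found in 3.57% of the 35116 windows and in 4.38% of the 27305 genes these stand for. Of the TRIM genes tested, 31 were in the table and 8 of these held the motif. Of the 10 antiviral or interferon-linked members described below, 9 were in the table and 5 held it, against 3 of 22 other tested members. TRIM6, TRIM25, TRIM38 and TRIM56 were in the table without a match. By log2 fold change, TRIM25 and TRIM56 differed more below than TRIM26 and TRIM34, which held the motif. By the ratio of the means in total RNA, TRIM34 (2.98) stood above TRIM25 (1.92) and TRIM56 (2.10), and TRIM26 (1.46) below them. The windows of the 5 members with a match are shown. Each is given 5′ to 3′ on the strand of the gene with the motif in capitals, and TTTC letters mark a match on the opposite strand.
TRIM5, chr11:5685082-5685111, minus strand, 27 bases upstream of the start: atagtttatcTTTCACTTTCctgccctgag
TRIM14, chr9:98119229-98119258, minus strand, 26 bases upstream: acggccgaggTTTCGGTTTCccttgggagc
TRIM21, chr11:4393663-4393692, minus strand, 17 bases downstream, 2 overlapping matches: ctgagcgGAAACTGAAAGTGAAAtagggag
TRIM26, chr6:30213578-30213607, minus strand, 194 bases upstream, 2 overlapping matches: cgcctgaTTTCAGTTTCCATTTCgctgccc
TRIM34, chr11:5624901-5624930, plus strand, 90 bases upstream: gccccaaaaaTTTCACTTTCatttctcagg

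The other tested members with the motif were TRIM2, TRIM16 and TRIM44, whose windows follow for comparison. TRIM22 was not in the table. A match says only that these letters are there.
TRIM2, chr4:153151936-153151965, plus strand, 217 bases upstream: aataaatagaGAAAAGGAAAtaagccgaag
TRIM16, chr17:15683012-15683041, minus strand, 80 bases upstream: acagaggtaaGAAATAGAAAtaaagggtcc
TRIM44, chr11:35662730-35662759, plus strand, 35 bases upstream: tcctgacgggGAAAGGGAAAgtggaaccgg

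RBMX itself stood at 87.4 to 148 FPKM in the 6 control libraries and at 1072 to 2073 in the 6 RBMX libraries, as the labels say. The HEK293 markers fixed for this work (VIM, KRT8, KRT18, NEFL, NEFM, PAX2 and LHX1) were all present, between 2.49 and 577 FPKM, while PTPRC, CD3E, ALB, HBB and PECAM1 stayed at or below 0.226 and COL1A1 reached 8.61. The third library of a group stood apart from the other two. In the control total group, 14 of 43 TRIM genes had less than 0.75 times the mean of replicates 1 and 2 in replicate 3, against 15.7% of all genes tested, and in the control polysomal group it was again 14, against 19.8%. In the RBMX groups these were 9 genes in total RNA, against 6.28%, and 11 in polysomal RNA, against 8.27%. Values without these libraries are given below for TRIM11, TRIM24, TRIM25, TRIM26, TRIM28, TRIM45 and TRIM56 and for the calls of the antiviral members. How many fragments each library held is not known.

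The family's expression in HEK293 was headed by TRIM28, with a mean of 201 FPKM over the 12 libraries and 16.7 to 31.2% of the FPKM summed over all members. TRIM25 (53.9), TRIM26 (43), TRIM27 (36.1), TRIM41 (34.2), TRIM14 (33.1), TRIM44 (31.7) and TRIM11 (28.5) came next. In all, 12 members averaged 20 FPKM or more, 20 between 5 and 20, and 11 between 0.5 and 5. The most even of the abundant members were TRIM37, a ligase with a MATH domain, at 20.5 to 24.7 FPKM, and TRIM65, at 20.2 to 23.2. By the ratio of the highest to the lowest group mean, TRIM22, TRIM34, TRIM21, TRIM56 and TRIM5 varied most, as the log axis of the ranked plot shows.

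**Figure D1:**
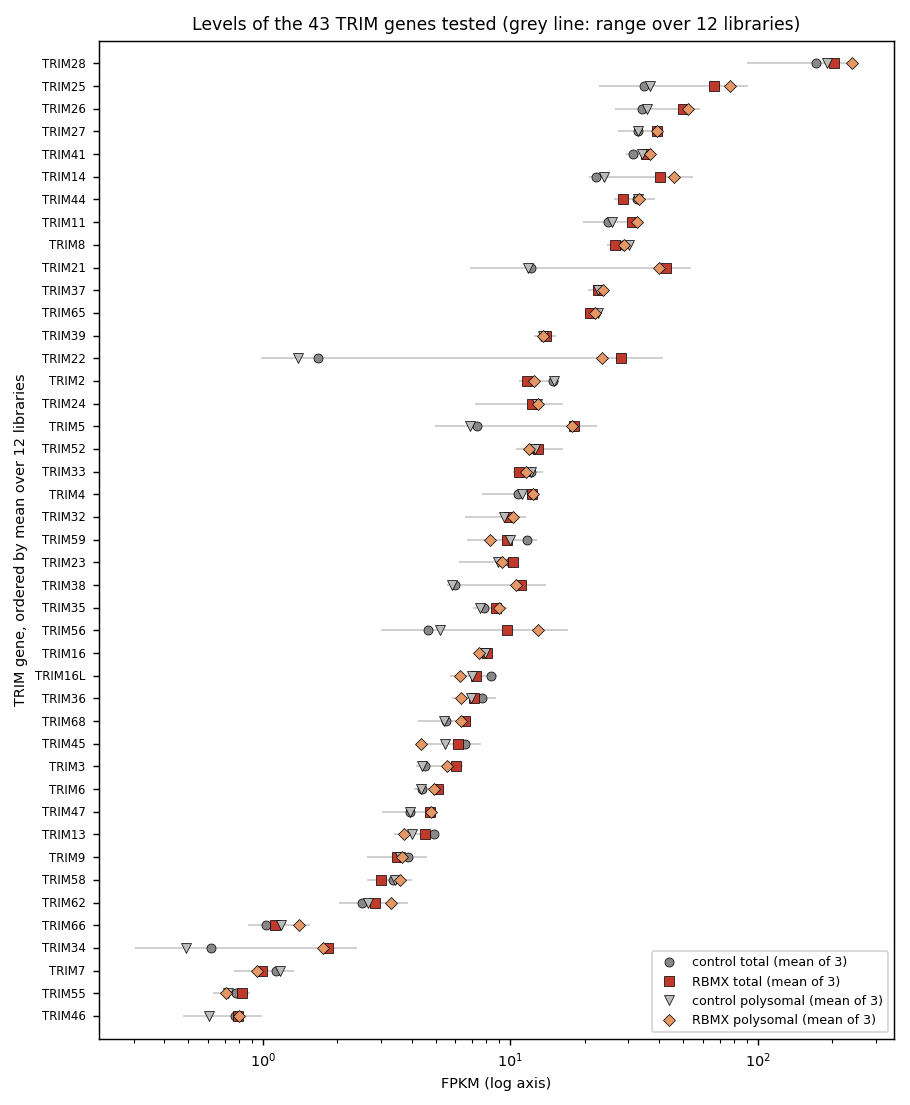
Mean FPKM of each TRIM gene tested in the 4 groups (symbols, n = 3 each) on a log axis, with the range over 12 libraries as a grey line and genes ordered by their mean. TRIM28 leads at 201 FPKM, and TRIM22 spans 0.981 to 41.4 FPKM while TRIM37 and TRIM65 hardly move.

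Among the 29 members below the filter, 5 (TRIM51, TRIM64, TRIM64B, TRIM64C and TRIM77) were listed at 0 in all 12 libraries, 16 averaged under 0.1 FPKM and 8 between 0.1 and 0.5. Of the 3 muscle members of subgroup C-II, which act at the sarcomere, TRIM63 and TRIM54 were in this range and did not pass 0.164 and 0.450 FPKM, while TRIM55 was tested, at 0.630 to 0.885 FPKM. TRIM63 was listed at 0 in the 3 control total libraries and at 0.164, 0.152 and 0.0435 FPKM in the RBMX total libraries. Of the 25 members below the filter that had a promoter window, 2 held the motif above, TRIM64C and TRIM69. TRIM69 was at 0.138, 0.135 and 0.280 FPKM in control total and 0.474, 0.692 and 0.217 in RBMX total RNA, so its groups overlapped. TRIM54, TRIM55, TRIM63 and TRIM69 were picked after their values were seen.

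In total RNA, no TRIM gene passed an adjusted p of 0.05 between RBMX and control (limma, Benjamini-Hochberg over 14676 genes), where 0.164% of all genes did. Without adjustment 13 members were higher and 4 lower at p under 0.05, against 7.93% and 10.8% of all genes. The 3 libraries of the 2 groups did not overlap for 17 members that were higher with RBMX and 5 that were lower, and the backgrounds were 11.9% and 15.4%. The median log2 fold change was 0.067 over the 43 members and 0 over all genes tested. With 3 libraries against 3, the smallest exact permutation p is 0.1. In bulk RNA of this kind, fewer cells that express a gene and less of its RNA per cell cannot be told apart.

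The higher values sat mostly in the 10 members listed as antiviral or interferon-linked (TRIM5, TRIM6, TRIM14, TRIM21, TRIM22, TRIM25, TRIM26, TRIM34, TRIM38 and TRIM56). All 10 lay above the control libraries without overlap and at an unadjusted p under 0.05, with a median log2 fold change of 0.88. Of all genes tested, 11.9% were higher without overlap and 7.93% at an unadjusted limma p under 0.05. Of the 33 other members tested, 7 were higher and 5 lower without overlap, beside 11.9% and 15.4% of all genes, and their median was 0.02. The list was drawn up with earlier results of these data known, so its count is a description.

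TRIM22, an interferon-induced ligase, differed most. In control total RNA it was at 1.82, 1.93 and 1.28 FPKM, and with RBMX at 37.3, 41.4 and 5.30. The first 2 RBMX libraries were more than 22 times the control mean and the third 3.16 times, so the groups were apart but the RBMX libraries far from alike. The log2 fold change was 3.03 (SE 0.77, adjusted p = 0.176 by limma), and the ratio of the means was 16.7. The log2(FPKM + 1) scale understates the change of low genes such as this one.

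TRIM21, which targets antibody-coated virus for degradation, was at 13.3, 14.3 and 8.70 FPKM in control and at 51.7, 53.7 and 22.4 with RBMX. Its log2 fold change was 1.67 (SE 0.38, adjusted p = 0.176 by limma). TRIM5, the retroviral restriction factor, went from 8.42, 8.15 and 5.43 FPKM to 22.0, 22.4 and 9.91, a log2 fold change of 1.14 (SE 0.35). In both genes the third library was the lowest of its group, in control as with RBMX, and the lowest RBMX value still lay above the highest control value.

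TRIM25, which ubiquitinates the RNA sensor RIG-I, was at 39.6, 41.6 and 22.9 FPKM in control and at 76.2, 74.9 and 48.8 with RBMX, with a log2 fold change of 0.94 (SE 0.29). TRIM56, a ligase linked to sensing of viral nucleic acids, was at 4.78, 6.10 and 2.99 against 11, 10.7 and 7.43, with 0.95 (SE 0.25). TRIM14, an adaptor without a RING finger, was at 20.7, 25.1 and 20.9 against 43.6, 44.7 and 32.4, and its log2 fold change of 0.82 (SE 0.15) had the smallest adjusted p of the list, 0.170 by limma. Control replicate 3 of TRIM14 was not low, unlike that of TRIM25 and TRIM56.

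The remaining members of the list were lower in level or in change. TRIM38, a regulator of innate immune signalling, went from 5.55, 5.93 and 6.49 FPKM to 11.9, 13.9 and 7.26, with a log2 fold change of 0.74. TRIM34, a close relative of TRIM5, went from 0.663, 0.738 and 0.451 FPKM to 2.17, 2.40 and 0.945, with 0.77, where the ratio of the means was 2.98. TRIM26, with a PRY-SPRY domain, had a log2 fold change of 0.54 and TRIM6, the weakest of the list, 0.18, with 4.61, 4.09 and 4.49 FPKM against 5.24, 5.39 and 4.73.

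**Figure D2:**
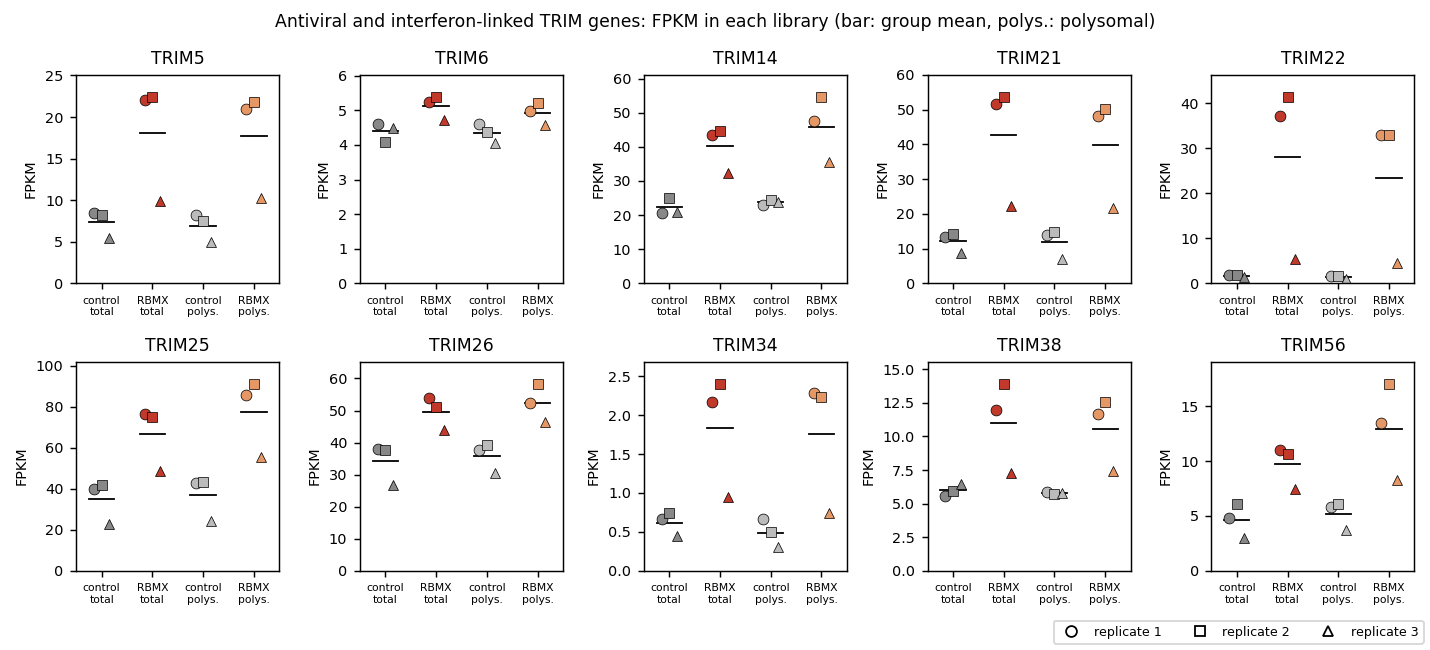
FPKM of the 10 antiviral or interferon-linked TRIM genes in each of 12 libraries, by group (x axis), with the group mean as a bar and a symbol shape per replicate number. RBMX replicate 3 (triangles) is the lowest RBMX library of its fraction in every panel, for TRIM22 at 5.30 FPKM in total RNA. In polysomal RNA, RBMX replicates 1 and 2 also lie apart for some genes, such as TRIM56 (13.5 and 17.0 FPKM) and TRIM26 (52.3 and 58.2 FPKM).

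In polysomal RNA the same test again called no TRIM gene (0.0477% of all genes), and the smallest adjusted p was 0.400 by limma. Without adjustment 12 members were higher and 1 lower, against 5.16% and 6.53% of all genes. The groups did not overlap for 16 members higher and 2 lower, beside 10.0% and 12.5% of all genes, and the median log2 fold change was 0.13 against 0 over all genes tested. Of the antiviral list, 9 of 10 lay above control without overlap, TRIM6 being the exception (4.60, 4.36 and 4.07 against 4.98, 5.23 and 4.59 FPKM), and the median of the list was 0.98.

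TRIM22 was at 1.65, 1.54 and 0.981 FPKM in control polysomal RNA and at 32.9, 32.9 and 4.52 with RBMX, a log2 fold change of 2.96 (SE 0.75). TRIM21 was at 13.8, 14.7 and 6.88 against 48.2, 50.1 and 21.6 (log2 fold change 1.65), and TRIM5 at 8.20, 7.46 and 4.96 against 20.9, 21.8 and 10.3 (1.20). TRIM56 showed 5.79, 6.06 and 3.75 FPKM against 13.5, 17.0 and 8.32 (1.14). As in total RNA, the third RBMX library was the lowest in each of these genes.

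TRIM25 rested on 42.8, 43.2 and 24.4 against 85.5, 90.9 and 55.4 FPKM (log2 fold change 1.06) and TRIM14 on 23.1, 24.5 and 23.9 against 47.6, 54.6 and 35.6 (0.90). TRIM34, TRIM38 and TRIM26 followed with 0.84, 0.73 and 0.54. The 10 genes stood in the same order by log2 fold change in both fractions. From TRIM5 down to TRIM38, however, neighbours in that order differed by less than the larger of their standard errors. By the ratio of the means the order was not the same. TRIM34 was at 2.98 in total and 3.59 in polysomal RNA, and TRIM21 at 3.53 and 3.39.

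**Figure D3:**
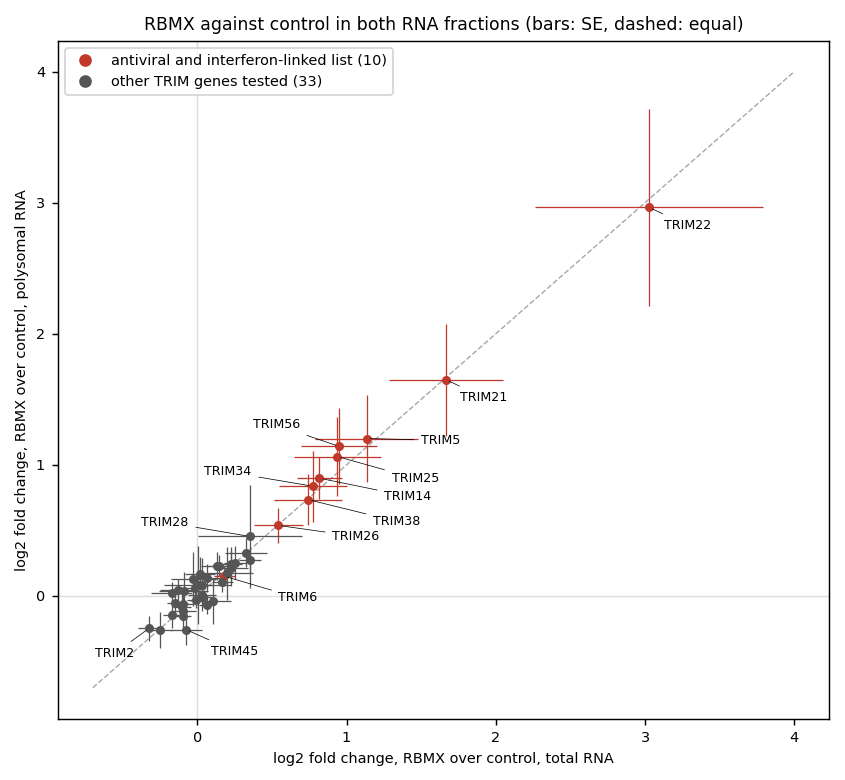
Log2 fold change of RBMX over control in total RNA (x) and in polysomal RNA (y) for the 43 TRIM genes tested, with standard errors as bars, the antiviral list in red and a dashed line where both are equal. The points follow the dashed line, from TRIM22 (3.03 and 2.96) to TRIM2 (-0.32 and -0.25).

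Whether RBMX acted differently on the polysomal than on the total level was tested directly, as the interaction of vector and fraction over the 12 libraries. No TRIM gene passed (0.0204% of all genes did), and 0 of 43 had an unadjusted p under 0.05, where 0.211% of all genes were higher and 0.388% lower. The polysomal minus total log2 fold change ran from -0.18 for TRIM45 to 0.19 for TRIM44, with a median of 0.02. TRIM22 differed by -0.06 (SE 1.14) and TRIM56 by 0.19 (SE 0.41). This fit took the 12 libraries as independent, although a culture's total and polysomal libraries share a gradient. Spread between cultures therefore entered the standard errors, and the absence of calls does not show that the effects were equal. The polysomal over total ratio of TRIM22 itself lay between 0.764 and 0.910 in the 6 cultures.

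The calls of the antiviral members turned on single libraries. Without RBMX total replicate 3, 5 members passed in total RNA by limma, where 1.21% of all genes did: TRIM22 (log2 fold change 3.92, adjusted p = 0.00161), TRIM21 (2.06), TRIM34 (1.02), TRIM38 (0.99) and TRIM14 (0.96). Without RBMX polysomal replicate 3, TRIM22, TRIM34, TRIM38 and TRIM14 passed in polysomal RNA, beside 0.859% of all genes. Without replicate 3 of both groups, a setting chosen after seeing the data, 7 passed in total RNA (TRIM5, TRIM21, TRIM22, TRIM25, TRIM26, TRIM34 and TRIM38) and 7 in polysomal RNA, with TRIM14 in place of TRIM26, beside 2.09% and 2.37% of all genes. With all libraries none passed. Leaving out control total replicate 3 instead lowered the log2 fold changes of TRIM25, TRIM56 and TRIM26 in total RNA to 0.67, 0.72 and 0.38. For TRIM6 and TRIM38 that library lay above the mean of control replicates 1 and 2.

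RBMX replicate 3 also held less RBMX, 1460 FPKM in total RNA against 1731 and 2073. In polysomal RNA it held 1072 FPKM against 1167 and 1328. Transcripts of interferon-stimulated genes outside the family were fewer in RBMX replicate 3 as well. Control replicate 3 was likewise lower in RBMX, at 108 FPKM in total RNA against 147 and 145. ISG15, a ubiquitin-like modifier, was at 325, 353 and 218 FPKM in control total RNA and at 1810, 1799 and 603 with RBMX. All 12 interferon-stimulated genes counted here (ISG15, IFIT1, IFIT2, IFIT3, IFITM1, MX1, OAS1, STAT2, IRF7, IRF9, DDX58 and IFIH1) were higher with RBMX without overlap in both fractions. By limma 0 passed the adjusted threshold, while all 12 had an unadjusted p under 0.05 in both fractions, and their median log2 fold change was 1.97 in total and 2.02 in polysomal RNA. The largest were those of IFIT2 (3.04), IFIT3 (2.83) and OAS1 (2.81) in total RNA. Of all genes tested, 11.9% in total and 10.0% in polysomal RNA were higher without overlap. At an unadjusted limma p under 0.05, 7.93% and 5.16% were higher. The part of these libraries or of interferon signalling in the TRIM values was not tested.

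**Figure D4:**
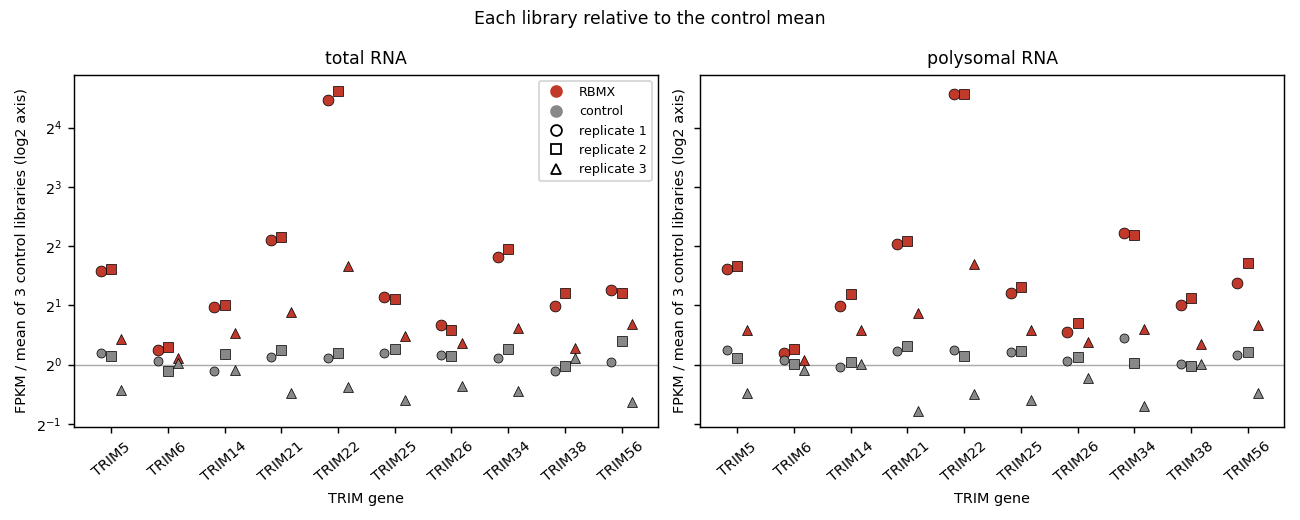
FPKM of the 10 antiviral or interferon-linked TRIM genes in each library divided by the mean of the 3 control libraries of that fraction, on a log2 axis, for total (left) and polysomal RNA (right). RBMX libraries (red) lie above 1 in every gene, and replicate 3 reaches 3.16 times for TRIM22 in total RNA where replicates 1 and 2 reach 22.2 and 24.7 times.

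Some of these genes share their locus with others, and the library kit did not mark the strand. In GENCODE v29, TRIM5 and TRIM22 lie on opposite strands and overlap over 47401 bases. TRIM14 overlaps NANS and TRIM25 overlaps DGKE on the opposite strand. TRIM34 lies inside the TRIM6-TRIM34 readthrough gene, which was listed at 0 in all libraries. TRIM6 overlaps the same readthrough gene on its own strand over 16234 bases. TRIM26 overlaps the pseudogene PAIP1P1 on the same strand, and TRIM38 overlaps the antisense gene U91328.2. Values of these genes are uncertain to that degree. TRIM21 and TRIM56 overlapped no other annotated gene.

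By the domains after the coiled coil, subgroup C-IV, whose members end in a PRY-SPRY domain, held most of the higher members. Of its 20 tested genes 14 were higher with RBMX without overlap in total RNA and none lower, beside 11.9% and 15.4% of all genes, with a median log2 fold change of 0.23. Leaving out the antiviral list, 6 of 12 were higher, with a median of 0.16. These were smaller steps, such as TRIM11 (28.5, 26.1 and 19.7 FPKM in control, 32.5, 30.0 and 30.4 with RBMX), TRIM27 (34.7, 34.4 and 29.6 against 39.6, 39.5 and 38.9) and TRIM47 (3.92 to 4.73 on average), with log2 fold changes of 0.33, 0.25 and 0.22. Without control replicate 3, the value for TRIM11 was 0.18. In polysomal RNA again 13 of 20 were higher and none lower, beside 10.0% and 12.5%.

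Of the 4 chromatin members with a PHD finger and bromodomain (C-VI), TRIM28 and TRIM24 were low in the third control library. TRIM28 was at 216, 206 and 90.5 FPKM in control total RNA and at 218, 192 and 201 with RBMX, so that its log2 fold change of 0.35 (SE 0.35) became -0.05 without control replicate 3. In polysomal RNA it was at 236, 241 and 92.8 against 236, 254 and 228. TRIM24, a co-regulator of nuclear receptors, was at 14.4, 15.1 and 8.26 FPKM in control total RNA and at 11.9, 12.0 and 12.7 with RBMX, and its log2 fold change went from 0.00 to -0.25 without that library. VIM and KRT8 were low in the same library (248 against 522 and 549 FPKM, and 68.0 against 151 and 146), and its part was not tested.

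TRIM33, which ubiquitinates SMAD4, was the C-VI member without overlap: 12.3, 12.3 and 11.8 FPKM in control against 10.6, 11.2 and 10.7 with RBMX in total RNA (log2 fold change -0.15, SE 0.05, adjusted p = 0.234 by limma). In polysomal RNA its groups overlapped. TRIM66 was near 1 FPKM throughout, with 0.07 in total and 0.14 in polysomal RNA. Among 8 partners of TRIM28, SETDB1, the histone H3 methyltransferase it recruits, was 1.27 times the control mean in total RNA and 1.24 times in polysomal RNA, both without overlap. The heterochromatin proteins CBX5 and CBX1 were at 0.811 and 0.904 times in total RNA and CBX3 at 0.858 times in polysomal RNA, again without overlap, of which CBX1 and CBX3 were named after their values were seen. By limma 0 of the 8 passed the adjusted threshold in either fraction. At an unadjusted p under 0.05, SETDB1 was higher in both fractions, beside 7.93% and 5.16% of all genes, and CBX5 lower in total RNA, beside 10.8%.

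The members lower without overlap in total RNA lay outside subgroup C-IV. TRIM2, a neuronal ligase with an NHL domain, was at 14.2, 15.5 and 15.1 FPKM in control total RNA and at 10.8, 11.6 and 12.7 with RBMX, the most negative log2 fold change of the 43 members (-0.32, SE 0.08, adjusted p = 0.176 by limma). Its relative TRIM3 stood the other way, at 4.86, 4.24 and 4.39 against 6.42, 5.72 and 5.94 (0.35, SE 0.07, adjusted p = 0.170 by limma). TRIM59, a membrane-anchored ligase, was at 11.3, 11.1 and 12.8 against 8.98, 9.72 and 10.4 (-0.25), TRIM16L at 8.11, 8.06 and 8.85 against 7.33, 7.35 and 7.18 (-0.17) and TRIM13, anchored in the endoplasmic reticulum, at 4.96, 4.91 and 4.90 against 4.31, 4.43 and 4.82 (-0.10). TRIM16L is a near copy of part of TRIM16, so reads can be split between them.

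In polysomal RNA only 2 members lay below control without overlap. TRIM45, which carries a filamin repeat, was at 4.85, 4.97 and 6.5 FPKM in control and at 4.21, 4.22 and 4.65 with RBMX. Its log2 fold change was -0.26, and -0.14 without control polysomal replicate 3. TRIM36, a microtubule-linked member, was at 6.88, 6.83 and 7.10 against 6.37, 5.83 and 6.79 (-0.12). TRIM2 overlapped by 1 library there (15.7, 15.2 and 14 against 11.6, 11.7 and 14).

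Proteins of the same build that the name rule did not take, and the enzymes TRIM proteins work with, were counted from fixed lists. PML, the TRIM protein of nuclear bodies, was at 28.4, 27.5 and 15.2 FPKM in control total RNA and at 73.6, 68.9 and 38.3 with RBMX, a log2 fold change of 1.31 (SE 0.35, adjusted p = 0.182 by limma), while MID1 differed by 0.02 and MID2 by -0.27. Of 12 ubiquitin-activating and ubiquitin-conjugating enzymes (E1 and E2), 0 passed by limma in either fraction, and 1 in each was lower at an unadjusted p under 0.05, beside 10.8% and 6.53% of all genes. In each fraction 3 of them were lower without overlap, where 15.4% (total) and 12.5% (polysomal) of all genes were, and the medians of the list were -0.14 and -0.19, against 0 over all genes. Of the 12, UBE2E2 had the largest difference in total RNA (-0.24).

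Where TRIM mRNAs stood in polysomal against total RNA was compared within each vector. In control cells 0 of 43 members passed by limma, beside 0.0818% of all genes, and in RBMX cells 1, beside 1.34%. At an unadjusted p under 0.05, 0 members were higher and 2 lower in polysomal RNA of control cells, where 3.20% and 4.84% of all genes were, and 1 was higher and 4 lower in RBMX cells, where 10.0% and 13.0% were. In control cells 1 member was higher and 3 lower in polysomal RNA without overlap, where 7.63% and 7.31% of all genes were. In RBMX cells these were 2 and 7 members, beside 14.6% and 16.2%. The medians were -0.01 and 0.01 on the log2 scale. These fits also took the libraries of a culture as independent.

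The gene that passed was TRIM45, which fell in polysomal RNA of RBMX cells from 6.16, 5.99 and 6.20 FPKM in total RNA to 4.21, 4.22 and 4.65 (log2 fold change -0.41, SE 0.05, adjusted p = 0.0440 by limma). The call was lost with each library left out in turn and, with the culture as a replicate block, 0 members passed. In control cells the libraries overlapped (6.45, 5.59 and 7.57 against 4.85, 4.97 and 6.5 FPKM, -0.23), and the difference between vectors was -0.18 (SE 0.16). The polysomal over total ratio of TRIM45 was below 1 in all 6 cultures, from 0.683 to 0.890.

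TRIM13, TRIM16L, TRIM22, TRIM36, TRIM55 and TRIM59 were also below 1 in all 6 cultures, and TRIM25, TRIM28, TRIM65 and TRIM66 were above 1 in all 6. The share of all genes tested on 1 side in all 6 cultures was not counted. Whether so many members are more than usual is therefore not known. For TRIM13 the ratios ran from 0.715 to 0.861, and its log2 difference was -0.25 in control cells and -0.23 in RBMX cells (SE 0.08 and 0.07). TRIM59 stood at -0.21 and -0.22, and TRIM16L at -0.22 and -0.20, in the same order. The membrane-anchored pair TRIM13 and TRIM59 form subgroup C-XI, and neither passed the adjusted threshold. On the opposite strand, TRIM13 overlaps DLEU2 over 24594 bases and TRIM59 overlaps SMC4 over 2518 bases. With the strand not marked, their values are uncertain to that degree.

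On the other side, TRIM28 had ratios of 1.03 to 1.32 and a log2 difference of 0.13 in control and 0.23 in RBMX cells, where the libraries did not overlap (218, 192 and 201 against 236, 254 and 228 FPKM). TRIM41 was the member above its total level without overlap in control cells (31.8, 32.6 and 29.3 against 32.9, 33.1 and 35.9 FPKM). TRIM56 had the highest single ratio, 1.59 in RBMX culture 2, but was at 0.993 in control culture 2.

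In RBMX cells TRIM9, a neuronal member with 3.55, 3.52 and 3.41 FPKM in total and 3.56, 3.62 and 3.71 in polysomal RNA, was higher without overlap by a log2 difference of 0.04. TRIM36 (-0.15) and TRIM23 (-0.13), an ARF-domain member at 10.3, 10.2 and 10.2 against 9.39, 8.44 and 9.98 FPKM, were lower without overlap.

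**Figure D5:**
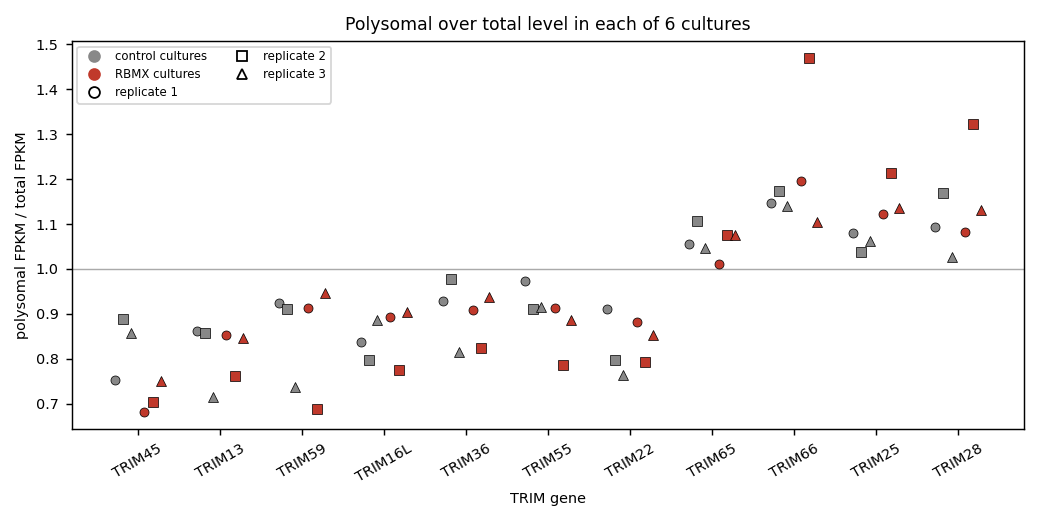
Polysomal over total FPKM in each of 6 cultures (grey, control, and red, RBMX, with a symbol shape per replicate number) for the 7 TRIM genes below 1 and the 4 above 1 in all cultures. TRIM45 lies at 0.683 to 0.890 and TRIM28 at 1.03 to 1.32. The share of all genes on one side in all cultures was not counted.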

How the data were processed

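RNA-seq libraries (TruSeq RNA kit) of total and polysomal RNA were compared as FPKM values that the authors deposited per gene symbol. The submitters' processing notes name CASAVA 1.8, TopHat2 2.0.13, Cufflinks 2.2.1, Cuffnorm and hg19. The study's methods describe another build and aligner, so no coordinates of the values are given. No counts were used, depth is unknown and its precision cannot be stated. Groups came from the labels, and 0 columns stayed unmatched.

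Values were tested as log2(FPKM + 1) with limma 3.58.1 in R 4.3.3 (lmFit, eBayes with trend) on genes that averaged 0.5 FPKM or more, with Benjamini-Hochberg adjustment over all 14676 genes and a threshold of 0.05. Each comparison used its own 6 libraries and the interaction all 12. Plots and motif searches used Python 3.11.15 and matplotlib 3.10.9. The fits were tested on simulated data.

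Members and lists were chosen with earlier results of these data known. Named were the 8 most abundant members, up to 6 per direction between vectors and 5 between fractions whose groups did not overlap, members past the threshold, the antiviral and C-VI members, and up to 3 genes of other lists. Deviations of a culture's total and polysomal library from the group means correlated with 0.605, 0.686 and 0.835 (control) and 0.222, 0.0198 and 0.654 (RBMX) over 14168 genes, small RNA genes left out. The shared gradient pairs them. Alternatives were a pseudocount of 0.1, a minimum of 0.1 or 1 or none, median-ratio or quantile scaling, eBayes without trend, leaving out each replicate in turn, blocks, and a single fit of all 12 libraries. Leaving out replicate 3 of every group was added after seeing the data. Readthrough genes were not taken as members. One gene of the interferon-stimulated list is not reported here and was left out of its counts and medians.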

Additional observations from a re-analysis of the deposited data

How the results depend on the processing

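Of 170 alternatives for the counts and medians of the 43 members, 147 kept the count within 1.5 times or the median within the spread. The number of members called between vectors with 1 library left out lay between 0 and 5 for total RNA and between 0 and 4 for polysomal RNA, the highest being those without RBMX replicate 3, and was 7 in each without replicate 3 of both groups. The total RNA median log2 fold change, 0.067, was 0.112 with a pseudocount of 0.1, 0.104 with a minimum of 1 FPKM and 0.0284 with no filter. The polysomal median was 0.0289 with no filter (72 genes in place of 43), 0.0846 with a minimum of 0.1 FPKM, 0.0590 without replicate 3, and 0.0697 to 0.185 with 1 library left out. For the interaction, the median ran from 0 to 0.0352 under the settings that kept all libraries and from -0.0453 to 0.0779 with 1 library left out, and for the fractions of control cells it ran from -0.0121 to 0.00965 with all libraries. The single call between fractions in RBMX cells, TRIM45, became 0 with no filter, quantile normalization, the culture as a replicate block, all 12 libraries in one fit, replicate 3 of every group left out, and each library left out (0 to 0), and the median was 0.0456 with quantile normalization and -0.0199 to 0.0451 with 1 library left out. The replicate block changed no other call. Across vectors the replicate number did not pair the libraries (correlations of deviations from -0.171 to 0.340), and the block left 0 members called in both fractions.

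Of 944 alternatives of named members, 15 turned the direction. In total RNA, TRIM24 went to -0.00267 with quantile normalization, -0.252 without control replicate 3, -0.0240 without RBMX replicate 3 and -0.278 without replicate 3 of both, TRIM28 to -0.0525 and -0.0440 and TRIM45 to 0.0228 and 0.0146 without control replicate 3 and without replicate 3 of both. In polysomal RNA, TRIM44 went to -0.00699 with quantile normalization, -0.0386 without control replicate 3, -0.0087 without RBMX replicate 2 and -0.0550 without replicate 3 of both, TRIM24 to -0.254 and -0.294 without control replicate 3 and without replicate 3 of both, and TRIM33 to 0.0276 without control replicate 1. With 1 library left out, these ran in total RNA from -0.252 to 0.146 for TRIM24, from -0.0525 to 0.570 for TRIM28 and from -0.168 to 0.0228 for TRIM45, and in polysomal RNA from -0.0386 to 0.0694 for TRIM44, from -0.254 to 0.285 for TRIM24 and from -0.159 to 0.0276 for TRIM33. Causes beyond the fewer libraries or added genes were not tested. The unknown depth limits what can be said of the 29 members below the filter.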
